A study of Mus musculus with 4 samples.

Results

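Chromatin at 3 genes that hold mouse embryonic stem cells in their undifferentiated state, Pou5f1, Sox2 and Nanog, was examined in ChIP-seq libraries labelled LSD1 and H3K4me2 and in the 2 controls, Input and IgG. The genes were chosen by name. Their regions were fixed windows of mm9, of 20 kb on chromosome 17 from 35635000 to 35655000 for Pou5f1, 30 kb on chromosome 3 from 34535000 to 34565000 for Sox2, and 30 kb on chromosome 6 from 122645000 to 122675000 for Nanog. The transcription starts were set at 35642977, 34548927 and 122657586, all on the plus strand. The 80 kb held 18 of the 32256 H3K4me2 peaks that the authors deposited, 8 of the 5106 LSD1 peaks and 0 of the 158 peaks of the IgG library. They held 2072 reads of the H3K4me2 library, 1004 of LSD1, 292 of IgG and 173 of Input.

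All 4 libraries came from one kind of cell, the 129SV embryonic stem cell line R1 at passages 13 to 18, grown on gelatin with leukaemia inhibitory factor (LIF) at 1000 U/ml. Cells were fixed with formaldehyde, and no genotype or treatment differed between groups. Input was chromatin DNA set aside before precipitation, IgG was DNA recovered with a control antibody, and the other libraries used antibodies against LSD1 and against dimethylated lysine 4 of histone H3. Library sizes ran from 3801082 reads (Input) to 6416657 (H3K4me2), with 4755619 in IgG and 5833862 in LSD1. Each group was 1 library, so no difference has a replicate check and no p-value is given. The 95% intervals in brackets cover counting error alone. The catalogue number listed for the LSD1 antibody is known to belong to an H3K27me3 antibody of another supplier, so the name LSD1 follows the label. The files hold no RNA measurement, and the cell type label was not checked against expression.

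Pou5f1 encodes OCT4, a POU-domain transcription factor. Sox2 encodes an HMG-box factor that binds DNA beside OCT4 at joint elements, and Nanog encodes a homeodomain factor. The 3 factors bind regulatory DNA of their own and of each other's genes, which ties them into a network that sustains self-renewal. Pou5f1 is known for a proximal and a distal enhancer upstream of its start, Sox2 for enhancers on both sides of its single exon, and Nanog for a joint OCT4 and SOX2 element in its promoter and an enhancer further upstream. H3K4me2 marks active or poised promoters and enhancers. LSD1 is a demethylase that acts on the mono- and dimethyl states of this residue, and in embryonic stem cells it is known as a partner of repressor complexes at enhancers of such genes.

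The promoter sequences are shown because called H3K4me2 peaks reached into the 250 bp before the start at all 3 genes and an LSD1 peak did so at Pou5f1. They are the 250 bases before the first RefSeq start of each gene in build GRCm38.p6, plus strand, 5′ to 3′. Both Pou5f1 and Nanog have 2 starts in that table and Sox2 has 1. Capitals mark matches on either strand to the octamer core TTTGCAT, the SOX cores ACAATG and ACAAAG, the GC box GGGCGG, the E-box CACGTG, the CCAAT box and TATAAA.
Pou5f1, chr17:35505782-35506031: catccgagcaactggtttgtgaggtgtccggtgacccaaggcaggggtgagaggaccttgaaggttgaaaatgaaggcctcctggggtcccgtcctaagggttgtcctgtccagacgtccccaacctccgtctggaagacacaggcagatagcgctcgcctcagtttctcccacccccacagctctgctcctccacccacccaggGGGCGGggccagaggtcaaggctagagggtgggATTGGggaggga
Sox2, chr3:34649745-34649994: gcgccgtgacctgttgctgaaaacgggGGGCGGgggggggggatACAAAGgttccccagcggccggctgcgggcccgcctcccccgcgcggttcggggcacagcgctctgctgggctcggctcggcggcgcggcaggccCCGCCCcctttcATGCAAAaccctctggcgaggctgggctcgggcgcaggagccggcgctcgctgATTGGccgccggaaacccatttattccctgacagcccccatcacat
Nanog, chr6:122707239-122707488: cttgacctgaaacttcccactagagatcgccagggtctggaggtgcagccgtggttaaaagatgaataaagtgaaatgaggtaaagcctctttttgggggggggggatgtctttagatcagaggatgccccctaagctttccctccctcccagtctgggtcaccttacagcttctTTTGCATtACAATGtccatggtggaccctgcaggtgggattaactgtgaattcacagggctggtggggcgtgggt

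In the Nanog stretch the octamer core lay at -75 to -69 and ACAATG at -67 to -62 from the first RefSeq start, with 1 base between them. From the second RefSeq start the same sites lay at -151 to -145 and -143 to -138. Which of these starts matches the mm9 start of Nanog was not checked. TTTGCAT or its reverse complement occurs in 4.12% of the 32851 promoter stretches of this length in the table, and ACAATG in 10.7%. The Sox2 stretch held the octamer core on the minus strand at -99 to -93, ACAAAG at -206 to -201, GC boxes at -223 to -218 and -111 to -106, and CCAAT on the minus strand at -46 to -42. Pou5f1 held a GC box at -45 to -40 and CCAAT on the minus strand at -12 to -8. ACAAAG occurs in 16.5% of the promoters, GGGCGG in 32.7% and CCAAT in 33.8%. CACGTG (6.02% of promoters) and TATAAA (12.4%) matched none of the 3 printed stretches. The Sox2 stretch was also the richest in CG dinucleotides, with 27 against 8 in Pou5f1, 3 in Nanog and a median of 6 over the table. These matches describe letters and were not tied to binding.

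The sequence table and the reads are on different builds, so reads were counted in the 250 bp before each mm9 start. Pou5f1 had 12 LSD1 and 10 H3K4me2 reads there, with 0 reads in IgG and 0 in Input. With the 0 IgG reads set to a floor of 3, LSD1 was 3.26-fold over IgG. This value leaves out the counting error of the 12 LSD1 reads and is no lower limit of an interval. Nanog had 9 LSD1 and 8 H3K4me2 reads, with 1 in IgG and 1 in Input, and LSD1 stood at 7.34 times IgG (1.02 to 322) and 5.86 times Input (0.813 to 257). Sox2 had 0 LSD1 and 2 H3K4me2 reads, with 1 in IgG and 0 in Input. The Sox2 stretch was thus under the floor of 3 reads in every library. At Nanog the interval against Input included 1.

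Within 2 kb on either side of the start, both ChIP libraries were above IgG at all 3 genes. At Pou5f1 the reads were 5 in Input, 20 in IgG, 99 in LSD1 and 220 in H3K4me2. In reads per 1000000 reads of the library (RPM) these were 1.32 (0.427 to 3.07), 4.21 (2.57 to 6.50), 17.0 (13.8 to 20.7) and 34.3 (29.9 to 39.1). At Sox2 the reads were 8, 24, 57 and 130 in the same order, or 2.10 (0.909 to 4.15), 5.05 (3.23 to 7.51), 9.77 (7.40 to 12.7) and 20.3 (16.9 to 24.1) RPM. At Nanog they were 14, 13, 82 and 148, or 3.68 (2.01 to 6.18), 2.73 (1.46 to 4.67), 14.1 (11.2 to 17.4) and 23.1 (19.5 to 27.1) RPM. Each ChIP library was above both controls at each gene, and the intervals overlapped only for LSD1 and IgG at Sox2.

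**Figure D1:**
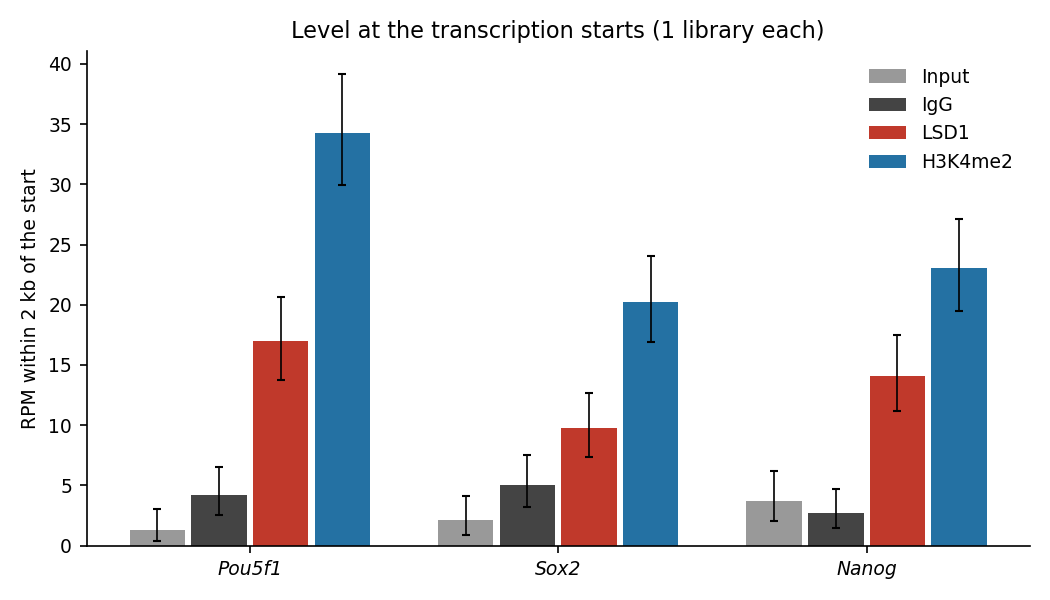
Reads within 2 kb of the transcription start of each gene, in RPM, for Input, IgG, LSD1 and H3K4me2 (1 library each); bars start at 0 and lines are exact Poisson 95% intervals. H3K4me2 is the highest library at each gene and reaches 34.3 RPM at Pou5f1, while the LSD1 and IgG intervals come closest to each other at Sox2.

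As ratios, LSD1 exceeded IgG 4.04-fold at Pou5f1 (2.48 to 6.89), 1.94-fold at Sox2 (1.18 to 3.26) and 5.14-fold at Nanog (2.85 to 10.1). All 3 intervals lay above 1, as did those of 3.96% of the 645446 tiles of 4 kb that cover the genome and of 57.9% of the tiles with an H3K4me2 peak. Within 1 kb of the start the Sox2 interval included 1 (1.85, 0.980 to 3.65). H3K4me2 exceeded IgG 8.15-fold at Pou5f1 (5.15 to 13.6), 4.01-fold at Sox2 (2.58 to 6.49) and 8.44-fold at Nanog (4.78 to 16.2), again above 1 at all 3 and in 6.15% of tiles. Among the 29497 tiles with an H3K4me2 peak, with 0.5 reads added to each count, the LSD1 to IgG ratio of Nanog stood at percentile 98.2, that of Pou5f1 at 94.3 and that of Sox2 at 44.3. Set against other marked regions, the Sox2 start was near the middle in this ratio and the others were in the upper part. The gene regions are centred on starts, while tiles are not.

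The order of the genes depended on the control. With IgG, Nanog exceeded Sox2 in the LSD1 ratio by a factor of 2.66 (1.18 to 6.16) and Pou5f1 exceeded Sox2 by 2.08 (1.001 to 4.35), while Nanog and Pou5f1 did not differ beyond counting error (1.27, 0.563 to 2.97). With Input, LSD1 was at 12.9 at Pou5f1 (5.35 to 40.6), 4.64 at Sox2 (2.20 to 11.3) and 3.82 at Nanog (2.15 to 7.29). Nanog was then below Pou5f1, at 0.296 of its ratio (0.0804 to 0.921), and its difference from Sox2 was within counting error (0.822, 0.280 to 2.27). The controls themselves moved between genes. IgG stood at 3.20 times Input at Pou5f1 (1.16 to 10.9), 2.40 at Sox2 (1.04 to 6.17) and 0.742 at Nanog (0.321 to 1.70). By arithmetic, the LSD1 to IgG ratio is the LSD1 to Input ratio divided by the IgG to Input ratio. The change in the order of the genes is therefore this control difference. Why the controls differ, and which is the better one here, was not tested.

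**Figure D2:**
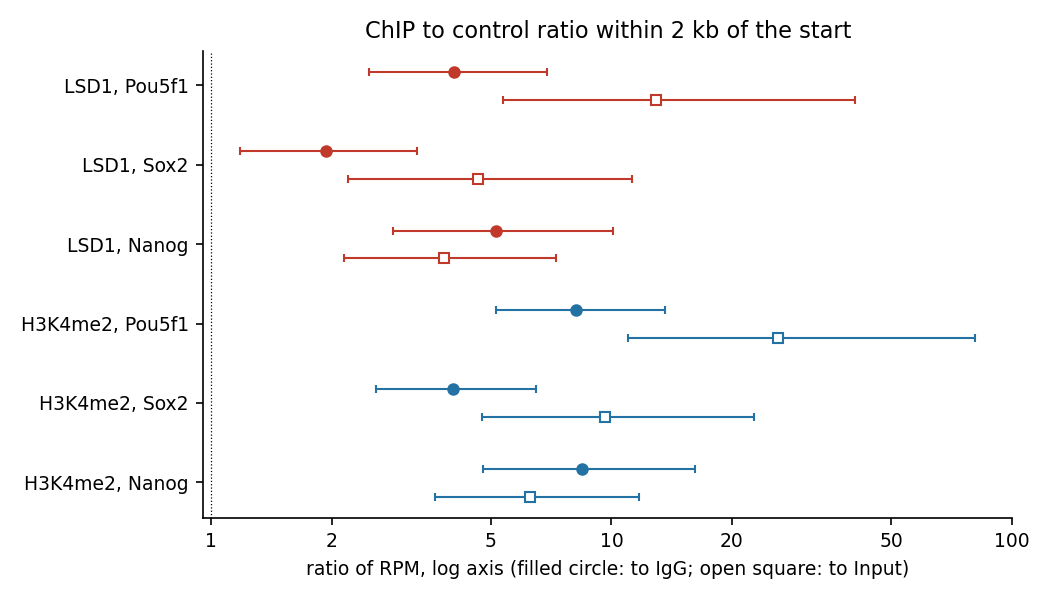
Ratio of ChIP to control RPM within 2 kb of the start, on a log axis, with exact binomial 95% intervals; filled circles use IgG and open squares Input as the control. Pou5f1 and Sox2 rise when Input replaces IgG, whereas Nanog moves from 5.14 to 3.82 for LSD1.

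In levels alone, with no control, LSD1 reads at Sox2 were the fewest. Pou5f1 had 1.74 times as many (1.24 to 2.45) and Nanog 1.44 times (1.01 to 2.05), and Pou5f1 and Nanog did not differ beyond counting error (1.21, 0.892 to 1.64). H3K4me2 was highest at Pou5f1, at 1.69 times Sox2 (1.36 to 2.12) and 1.49 times Nanog (1.20 to 1.84), while Nanog and Sox2 did not differ beyond counting error (1.14, 0.893 to 1.45). The ratio of LSD1 to H3K4me2 was alike in size at Pou5f1, 0.495 (0.386 to 0.630), and Sox2, 0.482 (0.347 to 0.663). At Nanog it was 0.609 (0.459 to 0.803), and none of the 3 pairs of genes differed beyond counting error. The widest of these intervals, for Nanog over Sox2, ran from 0.820 to 1.95. Over all H3K4me2 peaks, whose median width was 734 bp, the ratio was 0.514 (0.512 to 0.515). In the 4 kb tiles with an H3K4me2 peak, with 0.5 reads added to each count, its median was 0.638. Among those tiles Pou5f1 stood at percentile 15.4, Sox2 at 13.0 and Nanog at 43.1.

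Level at the start against the rest of the same window was taken within each library, without dividing by a control. For LSD1 it was 2.87 at Nanog (2.18 to 3.74), 1.54 at Pou5f1 (1.21 to 1.95) and 1.15 at Sox2 (0.850 to 1.52). For H3K4me2 it was 2.30 (1.90 to 2.78), 1.81 (1.54 to 2.13) and 1.26 (1.04 to 1.52). For H3K4me2 the intervals of Nanog and Pou5f1 overlapped, and in the Sox2 window other regions were about as high as the start. The rest of the window was 16 kb at Pou5f1 and 26 kb at the others, so the 3 values do not rest on like stretches. At Nanog the rest also included stretches of 1903 and 751 bp without a read start of any library. The controls gave 1.11, 1.53 and 1.39 for IgG at Pou5f1, Sox2 and Nanog, and 0.606, 0.897 and 1.65 (0.850 to 3.02) for Input. Their intervals all included 1, and Input too was highest at Nanog, so its part in the Nanog value was not tested.

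**Figure D3:**
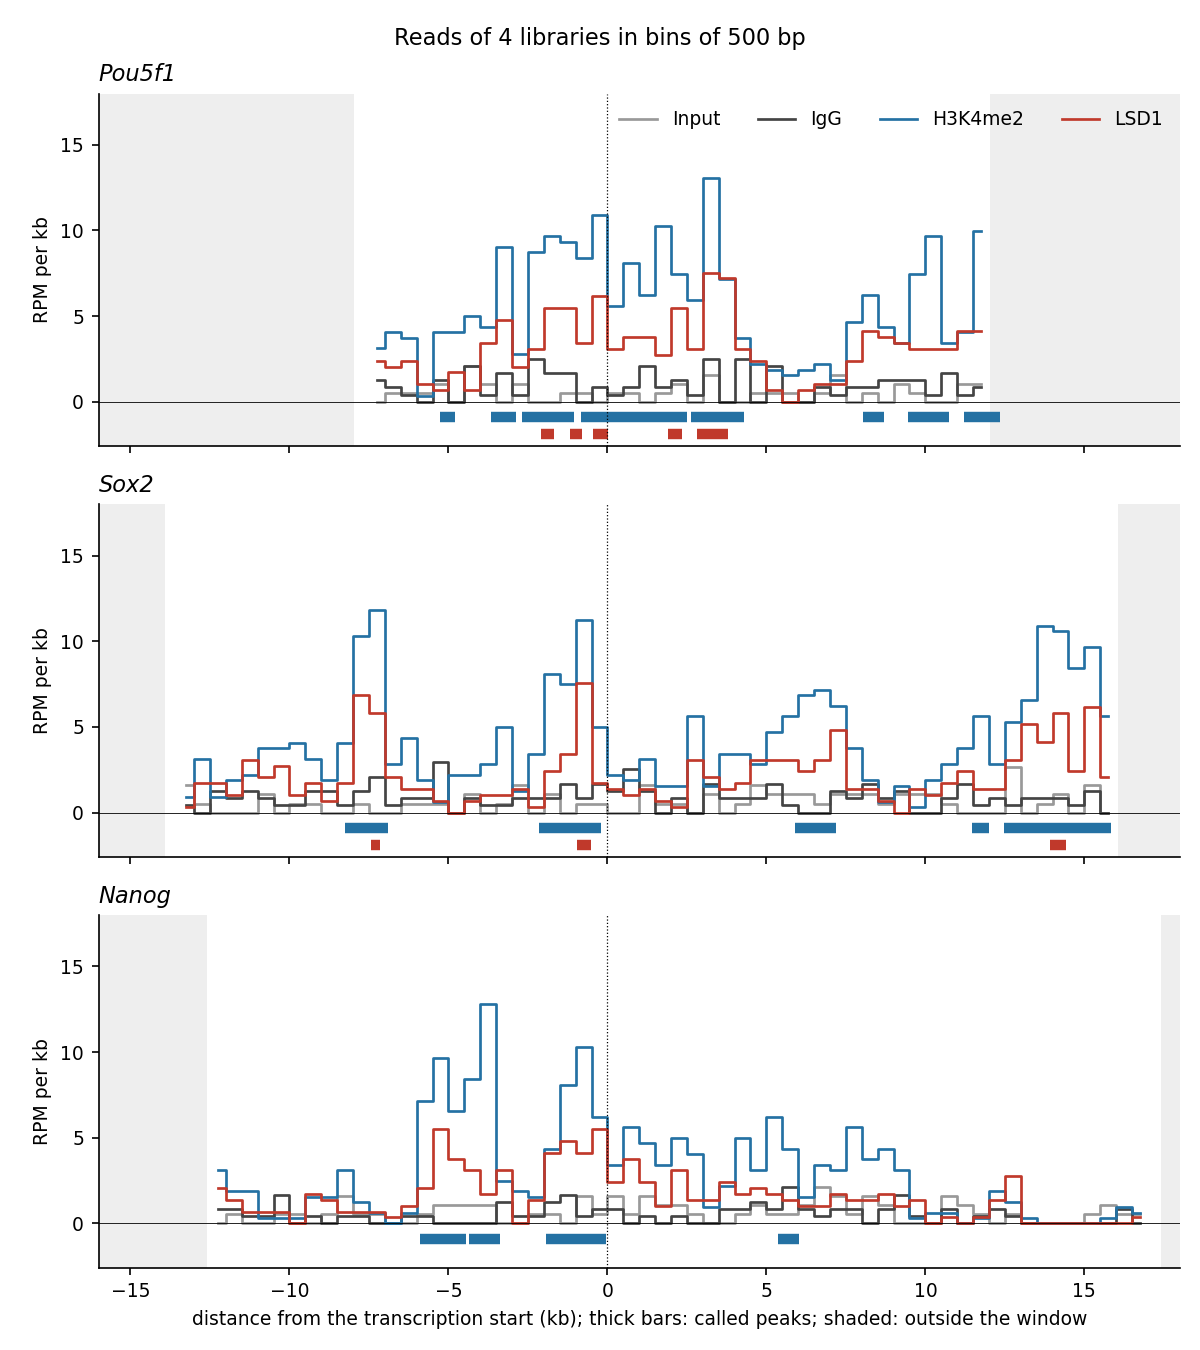
Reads of the 4 libraries in bins of 500 bp along each window, in RPM per kb, against the distance from the transcription start in kb; thick bars below 0 are called peaks of H3K4me2 (blue) and LSD1 (red), and grey areas lie outside the window. Pou5f1 shows one broad block with 5 LSD1 peaks, Sox2 separate blocks with 3, and Nanog blocks without an LSD1 peak.

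Pou5f1 had the densest cover. Its window held 8 H3K4me2 peaks that filled 53.5% of it, and both the start and the 250 bp before it lay in the largest, from -842 to 2511 bp (35642135 to 35645488). That peak was 3354 bp wide, rank 102 of the 32256, and held 6 Input, 15 IgG, 77 LSD1 and 182 H3K4me2 reads, which put H3K4me2 at 8.99 times IgG (5.31 to 16.4). Upstream lay peaks from -2673 to -1051 bp with 94 H3K4me2 reads and from -3652 to -2885 bp with 41, and downstream one from 2617 to 4293 bp with 96. These 4 peaks are less than 1 kb apart and form a block of 7946 bp, rank 75 in width among the 23437 such blocks in the genome. Further peaks lay from -5275 to -4792 bp with 17 reads and, past the gene, from 8034 to 8711 with 30, 9450 to 10738 with 66 and 11206 to 12357 with 59. The last of these reaches beyond the window. Tcf19 is the next gene on that side in the RefSeq table, so peaks there cannot be assigned to Pou5f1 by position alone.

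The block around Pou5f1 held 5 LSD1 peaks. Only 5 of the 23437 blocks in the genome (0.0213%) hold as many, and of all tiles of 20 kb, the width of this window, 0.00542% hold at least 5. These shares are over blocks of all widths and over tiles with or without an H3K4me2 peak, so they are not matched to this wide block. In the upper 50% of the LSD1 list by reads per kb, only the peak from 2822 to 3804 bp is left, and the 4 within 2 kb of the start are not. All LSD1 peaks of the 3 windows shared bases with an H3K4me2 peak. The share of all LSD1 peaks in the genome that do so is not given here, so this overlap cannot be called particular to these genes. Upstream of the Pou5f1 start, a peak ran from -2101 to -1687 bp, with 0 Input, 5 IgG, 17 LSD1 and 22 H3K4me2 reads. The next ran from -1175 to -790 bp, with 0, 2, 15 and 4 in the same order. Another covered the start from -458 to 6 bp, with 0, 2, 17 and 29, and so contained the 250 bp before the mm9 start. Which of the 2 RefSeq starts matches that start was not checked. Downstream peaks ran from 1914 to 2356 bp, with 2, 3, 17 and 27, and from 2822 to 3804 bp, with 3, 7, 45 and 70. The last was 983 bp wide, rank 120 among all LSD1 peaks, and held the most LSD1 reads of the 8.

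Counts at single LSD1 peaks were small. The LSD1 to IgG interval lay above 1 at 4 of the 5 Pou5f1 peaks and 2 of the 3 Sox2 peaks, against 89.6% of all LSD1 peaks. At Pou5f1 the exception was the most upstream peak, at 2.77 (0.982 to 9.61), and the others ranged from 4.62 (1.34 to 24.6) to 6.93 (1.64 to 61.8). These peaks were called on the same reads, so their levels are no independent evidence for the calls. Over the 8 peaks together, LSD1 stood at 4.89 times IgG (3.24 to 7.65), beside 4.45 over all LSD1 peaks. Read starts in the 8 peaks together fell on both strands, with 73 on the plus and 90 on the minus strand. Some single peaks were less even, with 4 plus and 12 minus starts from 1914 to 2356 bp at Pou5f1. Sox2 had 5 and 16 from 13923 to 14421 bp, whereas Pou5f1 had 10 and 10 from -458 to 6 bp.

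The peak from -1175 to -790 bp differed from the others in its histone mark. It had 15 LSD1 reads against 4 H3K4me2 reads, a ratio of 4.12 (1.31 to 17.1), which is percentile 98.7 among all LSD1 peaks. It was the only 1 of the 8 whose LSD1 to H3K4me2 interval lay above 1, as in 2.9% of all LSD1 peaks. Of its 386 bp, 208 lay in the gap between the upstream and the central H3K4me2 peak, from -1050 to -843 bp. In that gap alone there were 10 LSD1 reads, 2 H3K4me2 reads and 0 in both controls. A gap is a stretch without an H3K4me2 call, so its low H3K4me2 count follows from the choice of stretch. The other gaps inside the block, from -2884 to -2674 and from 2512 to 2616 bp, held 1 and 0 LSD1 reads, and also 1 and 0 H3K4me2 reads. Past the block, the gap from 10739 to 11205 bp held 8 LSD1 and 2 H3K4me2 reads, a ratio of 4.40 (0.878 to 42.5). The gap from 8712 to 9449 bp held 14 of each, a ratio of 1.10 (0.486 to 2.49). Among the other 7 LSD1 peaks the ratio to H3K4me2 lay between 0.526 and 0.850.

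**Figure D4:**
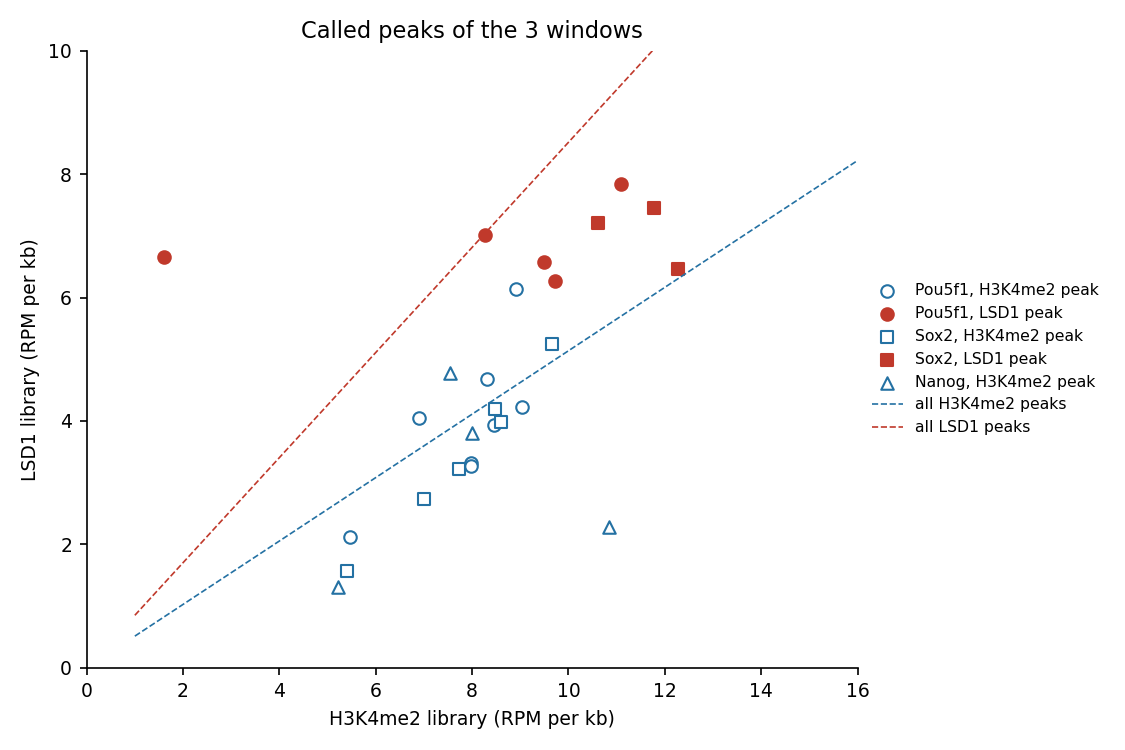
Each called peak of the 3 windows by its H3K4me2 level (x axis) and LSD1 level (y axis), both in RPM per kb; filled symbols are LSD1 peaks, open symbols H3K4me2 peaks, and dashed lines the summed ratio over all peaks of each list. One Pou5f1 LSD1 peak stands at the left with 1.61 RPM per kb of H3K4me2 and 6.66 of LSD1, and one Nanog H3K4me2 peak at the lower right with 10.8 and 2.28.

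At Sox2 the called H3K4me2 peaks lay upstream of the start and from 5895 bp downstream on. The peak nearest the start ran from -2137 to -200 bp (34546790 to 34548727) and held 4 Input, 12 IgG, 45 LSD1 and 107 H3K4me2 reads. From the start to 2 kb downstream there were 4, 12, 13 and 28 reads, so LSD1 did not differ from IgG beyond counting error (0.883, 0.371 to 2.12), and neither did H3K4me2 (1.73, interval 0.852 to 3.73). In the 2 kb upstream the same ratios were 2.99 (1.55 to 6.22) and 6.30 (3.45 to 12.6). The highest 500 bp of IgG in this window, with 8 reads, also lay in the first 2 kb downstream, from 723 to 1222 bp, where LSD1 had 5 reads. The corresponding 2 kb after the start of Pou5f1 and Nanog held 39 and 28 LSD1 reads, at 3.18 (1.56 to 7.14) and 7.61 (2.35 to 39.1) times IgG. Nanog had 3 IgG but 9 Input reads there, and against Input LSD1 was at 2.03 at Nanog (0.930 to 4.88), close to the 2.12 of Sox2 (0.654 to 8.91), and at 8.47 at Pou5f1 (2.69 to 42.8).

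The widest H3K4me2 peak of the 3 windows lay 12466 to 15851 bp downstream of the Sox2 start (34561393 to 34564778). It spanned 3386 bp, rank 96 of all H3K4me2 peaks, with 11 Input, 11 IgG, 83 LSD1 and 184 H3K4me2 reads, and LSD1 stood at 6.15 times IgG (3.27 to 12.8). An LSD1 peak from 13923 to 14421 bp lay inside it, with 2, 2, 21 and 34 reads. The highest 500 bp of both ChIP libraries in the window fell on the same place, from 13773 to 14272 bp, with 24 LSD1 and 41 H3K4me2 reads. More modest H3K4me2 peaks lay from 5895 to 6583, 6604 to 7188 and 11461 to 12008 bp. In the first and second of these IgG had 0 reads and LSD1 had 11 each, 2.99-fold over the IgG floor with counting error left out. However, the first also held 4 Input reads, and LSD1 was 1.79 times Input there (0.531 to 7.72).

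Upstream, an H3K4me2 peak from -8253 to -6914 bp held 83 reads and had a density of 9.65 RPM per kb, percentile 97.0 of its list. The LSD1 peak inside it, from -7430 to -7139 bp, had 11 LSD1 reads against 5 in IgG (1.79, 0.574 to 6.58) and 0 in Input, and at 292 bp it was narrow for its list (percentile 1.94). The LSD1 peak before the start, from -945 to -509 bp, had 19 LSD1 reads against 1 in IgG, a ratio of 15.5 (2.46 to 644). Between these places, from 5 to 2 kb upstream, 13 LSD1 and 54 H3K4me2 reads gave a ratio of 0.265 (0.133 to 0.492). Sox2 lies within the long non-coding gene Sox2ot in the RefSeq table, so its flanks belong to that gene too.

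Nanog had no called LSD1 peak in 30 kb, and the nearest stood 32.1 kb downstream and 371 kb upstream of its start. Of tiles of 30 kb with at least 4 H3K4me2 peaks, 46% hold no LSD1 peak. Over all 30 kb tiles, with or without H3K4me2 peaks, 0.266% hold 3 or more, as at Sox2. These shares rest on different sets of tiles and cannot be set against each other. LSD1 peaks lay within 2 kb of the start at Pou5f1 (4) and Sox2 (1), and such a peak is found in 0.814% of 4 kb tiles, H3K4me2 peaks in 4.57%. Yet the start of Nanog had 82 LSD1 reads against 57 at Sox2, as given above. The highest 500 bp of LSD1 in the Nanog window, from -1736 to -1237 bp, held 19 LSD1, 24 H3K4me2 and 5 IgG reads. Called LSD1 peaks had at least 11 reads in their highest 500 bp, with a median of 21, and 36.3% of them had 19 or fewer. The Nanog place was the highest of a whole 30 kb window, while each called peak was searched only with 500 bp stretches centred inside it. The search spans are thus unlike. IgG had a median of 3 reads at those places, and 18.3% of the LSD1 peaks had 5 or more. At the Nanog place LSD1 was 3.10 times IgG (1.12 to 10.6), in a stretch chosen for its high LSD1 count. The highest 500 bp of IgG in the Nanog window, with 7 reads, overlapped this place, from -1886 to -1387 bp. LSD1 had 17 reads there, within counting error of IgG (1.98, 0.780 to 5.65), but that stretch was chosen for its high IgG count. The choice of stretch raises the former ratio and lowers the latter, so neither is a fair measure of LSD1 over IgG at this place.

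The H3K4me2 peak at the Nanog start ran from -1937 to -38 bp (122655649 to 122657548), with 5 Input, 10 IgG, 53 LSD1 and 92 H3K4me2 reads. LSD1 was 4.32 times IgG (2.18 to 9.53) and 6.91 times Input (2.78 to 22.1). Upstream, peaks from -5897 to -4457 bp and from -4354 to -3377 bp held 74 and 68 H3K4me2 reads and 1 IgG read each. At the first, LSD1 had 32 reads, at 26.1 times IgG (4.36 to 1062) and 4.17 times Input (1.61 to 13.7). At the second it had 13 reads, and against 4 Input reads its ratio was 2.12 (0.654 to 8.91). The low IgG count sets the size of both ratios to IgG. A downstream peak, from 5369 to 6024 bp, had 22 H3K4me2 reads, and its 5 LSD1 reads were not above the 6 of IgG (0.679, 0.164 to 2.67).

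The second upstream Nanog peak showed the opposite balance to the Pou5f1 gap, with much H3K4me2 and little LSD1. Its H3K4me2 density of 10.8 RPM per kb was at percentile 99.3 of all H3K4me2 peaks, and the highest 500 bp of H3K4me2 in the window, with 52 reads, fell in it. LSD1 was at 0.210 of H3K4me2 there (0.107 to 0.384), percentile 2.35 of the list. At its neighbour the ratio was 0.476 (0.304 to 0.729), near the 0.514 of all H3K4me2 peaks, and at the start peak 0.634 (0.443 to 0.898).

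**Figure D5:**
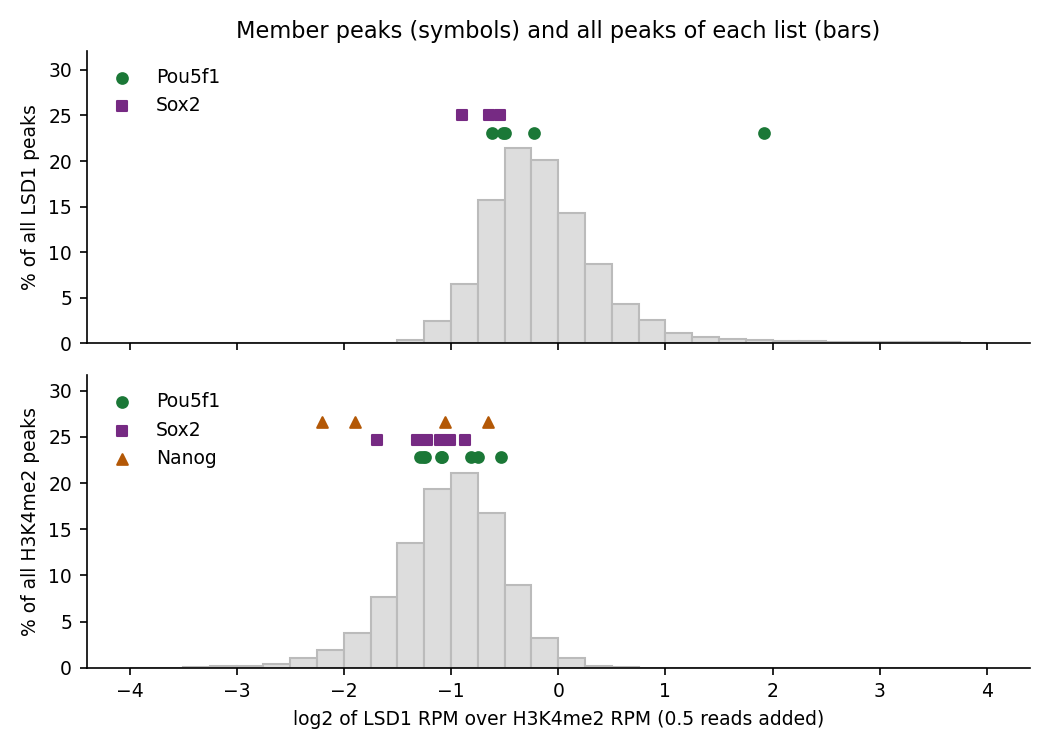
Distribution of the log2 ratio of LSD1 to H3K4me2 RPM, with 0.5 reads added, over all LSD1 peaks (upper) and all H3K4me2 peaks (lower), as the percentage of peaks per bin; symbols above the bars are the peaks of the 3 windows. The Pou5f1 peak at percentile 98.7 lies far to the right in the upper panel, and the Nanog peak at percentile 2.35 to the left in the lower one.

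Over the 18 H3K4me2 peaks of the windows, 6 (33.3%) held an LSD1 peak, 3 of 8 at Pou5f1, 3 of 6 at Sox2 and 0 of 4 at Nanog, against 14.2% of all H3K4me2 peaks. Those 6 were between 1340 and 3386 bp wide and the other 12 between 484 and 1900 bp, so width moved with the presence of a call and its part was not tested. The LSD1 to IgG interval lay above 1 at 14 of the 18, against 54.4% of all H3K4me2 peaks, and that of H3K4me2 to IgG at 18 of 18, against 97%. The 18 had a median width of 1220.5 bp, against 734 bp over all H3K4me2 peaks. Wider peaks hold more reads and give narrower intervals, so these shares are not matched. In read numbers the intervals of peaks with and without a call overlapped. The 6 peaks with an LSD1 peak had 346 LSD1 and 71 IgG reads, a ratio of 3.97 (3.07 to 5.20), and the 12 without had 220 and 39, a ratio of 4.60 (3.26 to 6.64). Over all peaks of the genome these ratios were 3.84 and 3.23. LSD1 relative to H3K4me2 was 0.510 (0.448 to 0.580) in the 6 and 0.442 (0.376 to 0.517) in the 12, with overlapping intervals. Over the genome it was 0.637 (0.633 to 0.641) with and 0.480 (0.478 to 0.481) without an LSD1 peak. The 6 thus lay below the value of all peaks with a call, but those had a median width of 1012 bp. The 6 were all wider than that, so the comparison is not matched for width.

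Over the whole windows the genes did not differ beyond counting error against IgG. LSD1 was at 3.15 times IgG at Pou5f1 (2.50 to 4.01), 2.46 at Sox2 (2.005 to 3.03) and 2.95 at Nanog (2.27 to 3.87), and H3K4me2 at 5.68 (4.56 to 7.14), 4.71 (3.90 to 5.73) and 5.67 (4.44 to 7.32). The intervals of these differences between genes all lay between 0.654 and 1.76. Against Input the same comparison separated them, with LSD1 at 6.10 at Pou5f1, 3.75 at Sox2 and 2.53 at Nanog, and all 3 intervals of the differences excluded 1. For H3K4me2 against Input, Nanog was below both other genes, while Pou5f1 over Sox2 was 1.53 (0.996 to 2.37). Some stretches held no read start of any library. The longest was 1903 bp in the Nanog window, from 13374 to 15276 bp, followed there by 751 bp from -7283 to -6533. The longest in the Pou5f1 window was 419 bp, from 5936 to 6354 bp. In the Sox2 window it was 278 bp, from 228 to 505 bp, and so within the first 2 kb downstream of the start. Processed copies of Pou5f1 and Nanog are known elsewhere in the mouse genome, and how reads that match several places were treated is not given in the sources used here.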

How the data were processed

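ChIP-seq of R1 embryonic stem cells gave 4 libraries, 1 per group. The authors deposited aligned reads of 36 bases in mm9, per the submitters' processing notes, as 1 line per read, and these lines are the counts used here. Within a library, no 2 reads shared both start and strand. The authors also deposited 3 peak lists with positions and no score or other value. Which aligner, peak caller, threshold and control were used is not given in the sources used here.

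Each read start was moved 100 bp along its strand and counted where it then fell. Counts were scaled to 1000000 reads of the library (RPM). Levels carry exact Poisson 95% intervals, ratios between libraries exact binomial ones conditional on both counts, and ratios between genes exact conditional ones. Reads without molecular identifiers are not independent molecules. A count of 0 was set to a floor of 3 reads, and ratios against that floor carry no interval. Peaks overlapped when they shared 1 bp, and blocks joined H3K4me2 peaks within 1 kb. Interval scripts were tested on simulated data. Promoters came from RefSeq, where all 3 genes matched. The RefSeq gene table is for GRCm38.p6, so no other gene was placed on mm9. No list of other pluripotency genes and no nearest genes by pattern were therefore run. All peaks in the windows are reported, by a rule set with the windows. The members and lists were chosen with earlier results of these data known. Alternatives were Input as the control, other moves of the start, scalings, window widths, peak thresholds and comparison sets. The software was scipy 1.17.1, pandas 2.3.3 and numpy 2.4.6 under Python 3.11.15, with matplotlib 3.10.9 for plots.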

Additional observations from a re-analysis of the deposited data

How the results depend on the processing

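Within 1 kb of the Sox2 start, LSD1 was at 1.85 times IgG, and this interval included 1 (0.980 to 3.65). With Input as the control, LSD1 was at 12.9 at the Pou5f1 start, 4.64 at Sox2, 6.10 in the Pou5f1 window and 3.75 in the Sox2 window. H3K4me2 was then at 26.1, 9.63, 11.0 and 7.19 in the same order, and the Nanog start and window values stayed within their intervals. Single H3K4me2 peaks moved too. The Nanog peak from -5897 to -4457 bp fell from 54.8 to 8.77, below its interval (9.54 to 2195). The Sox2 peak from -8253 to -6914 bp, with 1 Input read, rose from 7.69 to 49.2. The Pou5f1 peak from -842 to 2511 bp rose from 8.99 to 18.0, and further Pou5f1 and Sox2 peaks also rose beyond their intervals. Within 1 kb of the start, Pou5f1 rose to 7.83 for LSD1 and 15.7 for H3K4me2. Level at the start over the rest of the window, another quantity by construction, was 1.54 for LSD1 and 1.81 for H3K4me2 at Pou5f1, 1.15 and 1.26 at Sox2, and 2.30 for H3K4me2 at Nanog. With IgG subtracted, LSD1 to H3K4me2 was 0.311 at the Sox2 start and -0.187 at the downstream Nanog peak. In the upper 50% of the list by reads per kb, 3 of the 8 LSD1 peaks were left, 1 at Pou5f1 and 2 at Sox2. Within 2 kb of a start, Pou5f1 went from 4 to 0, and the 1 left was at Sox2. Among tiles with an H3K4me2 peak, Sox2 stood at percentile 44.3 for LSD1 and 68.0 for H3K4me2, against 90.0 and 97.7 among all tiles, so for LSD1 it moved from above to below the middle of the set. No paired analysis was possible because there was just 1 sample in every group.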
